A study of Mus musculus with 4 samples.

Results

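The stretches of mouse chromosome 3 that lie more than 5 Mb from the *Lef1* promoter were examined for contacts with the *Lef1* promoter and with Leaf, an element centromeric of it, in 4C-Seq libraries. A restriction fragment was included when its midpoint was more than 5 Mb from the centre of the promoter viewpoint, at 131.1 Mb of chromosome 3 in mm10 (GRCm38). This gave 127691 fragments, which were 93.0% of the 137330 scored fragments of chromosome 3 and 5.43% of the 2350945 scored in the genome. Of these, 104171 lay on the centromeric side, from 3.0 to 126.1 Mb, and 23520 on the telomeric side, from 136.1 to 159.9 Mb. They were grouped into 1 Mb bins, each named here by the megabase in which it begins, so that bin 122 covers chr3:122000001-123000000. Of 148 bins touched, 147 held at least 200 fragments and were used, 123 on the centromeric and 24 on the telomeric side.

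The 4 libraries came from OF1 mice. Whisker pads were dissected from E12.5 embryos, with 120 whisker pads pooled for each condition, and adult kidney served as the control tissue. Each tissue was read from the *Lef1* promoter and from Leaf, in 1 library each, and no test of a tissue difference was made because none can be checked by a replicate. The labels do not say whether the 2 viewpoints of a tissue were read from the same ligated DNA. The methods also mention E13 whisker pads, whereas the labels give E12.5. Tissue, age and pooling cannot be told apart in this design, because each tissue was taken at an age of its own and has no replicate library. 4C-Seq reads no expression, so that the tissue labels could not be checked against marker genes. A whisker pad or a kidney holds many cell types, and the libraries average over them.

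4C-Seq crosslinks chromatin, cuts it, ligates ends that lie close together in the nucleus and sequences what has been joined to a chosen viewpoint. Contacts are densest near the viewpoint and become rarer with distance along the chromosome. Beyond several megabases they reflect the folding of the whole chromosome, which occupies its own territory and separates into gene-rich and gene-poor compartments, so that a distant fragment of the same chromosome is usually met more often than a fragment of another one. *Lef1* encodes a transcription factor of the canonical Wnt pathway that is active in the early whisker pad.

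Each fragment was bounded by sites of NlaIII, the primary cutter, and all 127691 held a site of DpnII, the secondary cutter. The site lay wholly between the NlaIII sites in 98.3% of them. Median length was 316 bases, with an interquartile range of 187 to 507. A score above 0 was taken to mean that at least some ligation product was read from the fragment. The lowest such scores were 0.01 to 0.04, and what values this small stand for is not known. The scores are not whole reads and the depth of the libraries is unknown, therefore the share of fragments above 0 was the principal measurement.

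The following sequences show what a measured fragment is. They are the fragment that was above 0 in all 4 libraries and the fragment with the highest score in each library, taken from the RefSeq sequence of GRCm38, plus strand, 5′ to 3′. Capitals mark the NlaIII sites (CATG) at the ends and the DpnII sites (GATC) inside.
Above 0 in all 4 libraries, chr3:8246248-8246396: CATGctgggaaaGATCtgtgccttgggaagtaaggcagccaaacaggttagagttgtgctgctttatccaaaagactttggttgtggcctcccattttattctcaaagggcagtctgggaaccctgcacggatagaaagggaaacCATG
Highest in whisker pad from the promoter, chr3:157380692-157380764: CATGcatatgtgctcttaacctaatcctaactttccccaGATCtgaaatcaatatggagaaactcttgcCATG
Highest in kidney from the promoter, chr3:50757463-50757698: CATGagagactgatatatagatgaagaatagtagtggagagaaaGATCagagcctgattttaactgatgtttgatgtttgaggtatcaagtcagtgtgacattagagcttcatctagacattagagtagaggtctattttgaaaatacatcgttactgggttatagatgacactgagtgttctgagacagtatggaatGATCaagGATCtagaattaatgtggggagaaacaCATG
Highest in whisker pad from Leaf, chr3:136284659-136284915: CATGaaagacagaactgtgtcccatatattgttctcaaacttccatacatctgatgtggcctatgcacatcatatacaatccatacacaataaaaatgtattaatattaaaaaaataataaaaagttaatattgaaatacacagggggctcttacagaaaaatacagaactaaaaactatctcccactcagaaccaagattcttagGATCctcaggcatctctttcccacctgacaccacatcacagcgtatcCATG
Highest in kidney from Leaf, first 120 bases of chr3:158498145-158499489: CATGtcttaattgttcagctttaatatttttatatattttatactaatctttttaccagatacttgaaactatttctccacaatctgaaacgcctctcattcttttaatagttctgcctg

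The fragment above 0 in all 4 libraries was 1 of 127691 and lay 122.9 Mb from the promoter. Its raw score was 21.3 in whisker pad against 44.6 in kidney from the promoter, and 52.0 in whisker pad and 95.8 in kidney from Leaf. It overlapped no annotated gene, and the nearest protein-coding gene, *Stmn2*, which encodes a neuronal microtubule regulator, lay 262968 bases away. The next fragment along the chromosome shares its NlaIII site and was above 0 in every library except whisker pad from Leaf. Within 50 kb on either side, 3 of 82 fragments were above 0 in whisker pad from the promoter, 4 in kidney from the promoter, 1 in whisker pad from Leaf and 3 in kidney from Leaf, each count including the fragment itself. Most of these lay right beside it, as within 10 kb the counts were 2, 3, 1 and 3 of 13 fragments in the same order.

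The highest fragments were not shared. The highest score of whisker pad from the promoter, 215.0, lay 26.3 Mb away and 64251 bases from *Negr1*, a neuronal cell adhesion gene. That of kidney from the promoter, 222.6, lay 80.4 Mb away and 313853 bases from *Slc7a11*, a cystine transporter gene. In whisker pad from Leaf the highest score, 498.8, fell in *Bank1*, a B cell scaffold gene 5.18 Mb away. In kidney from Leaf it was 677.1 and fell in *Lrrc7*, a synaptic scaffold gene 27.4 Mb away. Each of these 4 fragments was at 0 in the other 3 libraries. That is the usual case for a distal fragment. The share above 0 over all distal fragments was 2.75% in whisker pad and 1.70% in kidney from the promoter, and 0.980% and 0.699% from Leaf.

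Distal chromosome 3 was contacted more widely in the whisker pad library than in the kidney library from both viewpoints. From the promoter, 3510 distal fragments were above 0 in whisker pad, a share of 2.75% (95% Wilson interval 2.66 to 2.84). In kidney there were 2168, or 1.70% (1.63 to 1.77). From Leaf, whisker pad had 1251 fragments above 0, or 0.980% (0.927 to 1.04), and kidney 893, or 0.699% (0.655 to 0.747). These intervals cover counting over fragments only, and neither differences between animals nor the dependence between neighbouring fragments. The whisker pad share was 1.62 times that of kidney from the promoter (95% interval 1.54 to 1.71) and 1.40 times from Leaf (1.29 to 1.53). The kidney libraries were also the poorer ones close to *Lef1*. Within 1 Mb of the promoter viewpoint, whisker pad reached a share of 59.4% against 29.1% for kidney when read from the promoter. Read from Leaf, the same stretch gave 36.6% against 13.6%. Whether the distal differences, here and below, go with the tissue or with the yield of each library was not tested.

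On the other autosomes, measured in the same libraries, the order of the tissues was the opposite. The share above 0 there was 1.00% in whisker pad and 1.19% in kidney from the promoter, and 0.480% and 0.529% from Leaf. Whisker pad over kidney was accordingly 0.840 (0.825 to 0.856) and 0.908 (0.884 to 0.933). A distal fragment of chromosome 3 was above 0 more often than a fragment of another autosome by 2.74-fold (2.64 to 2.84) in whisker pad and 1.42-fold (1.36 to 1.48) in kidney from the promoter. From Leaf, the ratio was 2.04 (1.93 to 2.16) in whisker pad and 1.32 (1.24 to 1.42) in kidney. All 4 libraries therefore saw their own chromosome above the others, and the ratio was 1.93 times (1.82 to 2.04) as large in whisker pad from the promoter and 1.54 times (1.41 to 1.69) as large from Leaf.

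By score rather than by number of fragments, distal chromosome 3 carried a smaller part of the chromosome's signal in whisker pad. It held 26.8% of the chromosome 3 score in whisker pad and 54.1% in kidney from the promoter, and 33.3% and 58.7% from Leaf. The denominators differ, because the region within 1 Mb of the viewpoint held 62.7% and 37.6% of the chromosome 3 score from the promoter in whisker pad and kidney, and 56.1% and 33.7% from Leaf. As a part of the score of the whole genome, the distal stretch held 10.2% in whisker pad and 7.50% in kidney from the promoter, and 9.17% and 7.19% from Leaf. Whether whisker pad appeared higher or lower thus depended on the denominator.

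In whisker pad from the promoter, 520 fragments held 50% of the distal score, against 353 in kidney. From Leaf the numbers were 215 and 118. As a share of the fragments above 0, these were 14.8% in whisker pad against 16.3% in kidney from the promoter, and 17.2% and 13.2% from Leaf, so that the order of the tissues in this share was not the same from both viewpoints. The median score of a fragment above 0 was 15.5 in whisker pad against 18.7 in kidney from the promoter, and 37.8 and 28.8 from Leaf. The Leaf libraries therefore had fewer distal fragments above 0, with higher scores.

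Detection depended on the fragment itself as well as on its place. Among fragments shorter than 150 bases, 1.36% were above 0 in whisker pad from the promoter, 0.803% in kidney from the promoter, 0.489% in whisker pad from Leaf and 0.404% in kidney from Leaf. Among those of 600 bases or more, the shares were 4.23%, 2.86%, 1.42% and 1.14%. The rise with length was present in all 4 libraries.

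Neighbouring fragments that share an NlaIII site were not independent in the promoter libraries. When a distal fragment was above 0 from the promoter and the next one shared its NlaIII site, the next one was above 0 in 24.1% of 1006 cases in whisker pad and in 10.9% of 533 cases in kidney. After a fragment at 0 these shares were 2.56% and 1.60%. From Leaf, the share after a fragment above 0 was 1.54% of 324 cases in whisker pad and 3.03% of 231 in kidney, against 1.08% and 0.681% after a fragment at 0. These Leaf shares rest on 5 and 7 fragments, so that dependence is less certain there, above all in whisker pad. On the other autosomes the share after a fragment above 0 was 20.1% in whisker pad and 11.1% in kidney from the promoter. Where the next fragment began less than 5000 bases on without sharing a site, the share in distal chromosome 3 was 3.80% in whisker pad and 1.76% in kidney from the promoter, against 2.59% and 1.68% after a fragment at 0. From Leaf, such neighbours showed no common direction, with 0.659% against 0.959% after a fragment at 0 in whisker pad, and 0.772% against 0.700% in kidney. The counting intervals are hence too narrow, most of all for the promoter in whisker pad. When stretches of fragments that share sites were taken as 1 unit, whisker pad over kidney was 1.55 from the promoter and 1.41 from Leaf.

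The contacts declined steeply with distance in the whisker pad libraries and less in the kidney libraries. At 5 to 10 Mb, 5.90% of fragments were above 0 in whisker pad from the promoter (5.44 to 6.40) and 2.18% in kidney (1.91 to 2.50). The whisker pad share was 4.02% at 10 to 20 Mb, 3.47% at 20 to 40 Mb, 2.06% at 40 to 80 Mb and 1.46% (1.35 to 1.59) beyond 80 Mb. The kidney share was 1.86%, 1.90%, 1.70% and 1.36% (1.25 to 1.48) in the same bands. Beyond 80 Mb the intervals of the tissues overlapped.

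From Leaf, whisker pad declined in the same way at lower shares. In whisker pad it was 1.89% (1.63 to 2.19) at 5 to 10 Mb, then 1.42%, 1.22%, 0.725% and 0.603% (0.530 to 0.686). In kidney it was 0.746% (0.590 to 0.943) at 5 to 10 Mb, then 0.722%, 0.821%, 0.699% and 0.590% (0.517 to 0.672). The tissues were apart up to 40 Mb, and their intervals overlapped from 40 Mb on.

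The share at 5 to 10 Mb over that beyond 80 Mb was 4.03 (3.59 to 4.53) in whisker pad and 1.61 (1.37 to 1.89) in kidney from the promoter. From Leaf it was 3.14 (2.58 to 3.82) in whisker pad and 1.27 in kidney, where the interval (0.967 to 1.66) included 1. Even beyond 80 Mb, chromosome 3 was above the other autosomes by 1.46-fold (1.34 to 1.59) in whisker pad and 1.14-fold (1.04 to 1.24) in kidney from the promoter. From Leaf this ratio was 1.26 (1.10 to 1.43) in whisker pad and 1.12 in kidney, with an interval (0.977 to 1.27) that included 1.

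**Figure D1:**
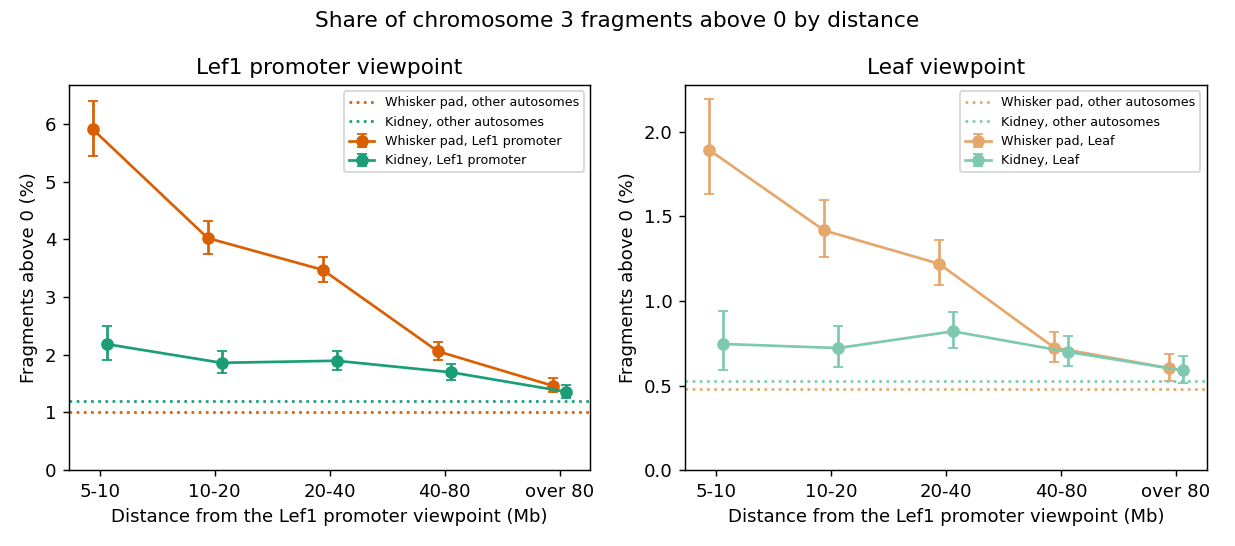
Share of chromosome 3 fragments above 0 (%) in 5 bands of distance from the *Lef1* promoter viewpoint (Mb), with 95% Wilson intervals as bars, for the promoter viewpoint (left) and Leaf (right), whose vertical axes differ. Dotted lines are the same share on the other autosomes. The whisker pad points fall from 5.90% to 1.46% and from 1.89% to 0.603%. Their intervals overlap those of kidney beyond 80 Mb from the promoter, and from 40 Mb on from Leaf.

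Just inside it, at 4 to 5 Mb, 8.51% of fragments were above 0 in whisker pad against 2.89% in kidney from the promoter, and 2.12% and 1.14% from Leaf. Just outside it, at 5 to 6 Mb, the values were 5.37%, 2.43%, 1.70% and 0.568%. All 4 shares were lower outside the limit, and the intervals of the neighbouring bands overlapped except in whisker pad from the promoter. From 1 to 5 Mb as a whole they were 14.2%, 4.56%, 4.92% and 1.49%.

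Pooled over the distances that both sides cover, up to 28 Mb, the telomeric and centromeric shares were close. Among the bands, the intervals of the sides were separate only at 10 to 20 Mb in whisker pad from the promoter. In the pooled range, whisker pad from the promoter had 4.33% of fragments above 0 on the telomeric side and 4.15% on the centromeric side, and kidney 1.87% and 1.92%. From Leaf the values were 1.52% and 1.52% in whisker pad and 0.790% and 0.653% in kidney. The telomeric over centromeric ratio was 1.04 (0.954 to 1.14), 0.977 (0.853 to 1.12), 0.996 (0.856 to 1.16) and 1.21 (0.969 to 1.51) in that order. All 4 intervals included 1, which does not show that the sides were alike. By band, whisker pad from the promoter had 6.28% (5.62 to 7.01) on the centromeric and 5.52% (4.89 to 6.22) on the telomeric side at 5 to 10 Mb. At 10 to 20 Mb the order was the other way, 3.26% (2.90 to 3.67) and 4.61% (4.23 to 5.03), with separate intervals. In kidney from the promoter the shares at 5 to 10 Mb were 2.58% (2.16 to 3.07) and 1.78% (1.44 to 2.21). These intervals overlapped only slightly, which does not show that the sides were alike there.

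Along the chromosome, the bins of whisker pad formed a slope that rose towards *Lef1* from both ends. From the promoter the share above 0 per bin ranged from 0% to 7.52% in whisker pad, with a median of 2.15%, and from 0.686% to 3.22% in kidney, with a median of 1.62%. From Leaf it ranged from 0% to 2.45% in whisker pad (median 0.849%) and from 0.119% to 1.81% in kidney (median 0.656%). Spearman's rho between the share and the distance over the 147 bins was -0.74 in whisker pad and -0.47 in kidney from the promoter, and -0.69 and -0.28 from Leaf. A median bin had 19, 14, 7 and 6 fragments above 0 in whisker pad and kidney from the promoter and in whisker pad and kidney from Leaf, so that single bins rest on few fragments, above all from Leaf. A single fragment carried more than 50% of a bin's score in 11 and 9 bins from the promoter and in 48 and 81 bins from Leaf.

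**Figure D2:**
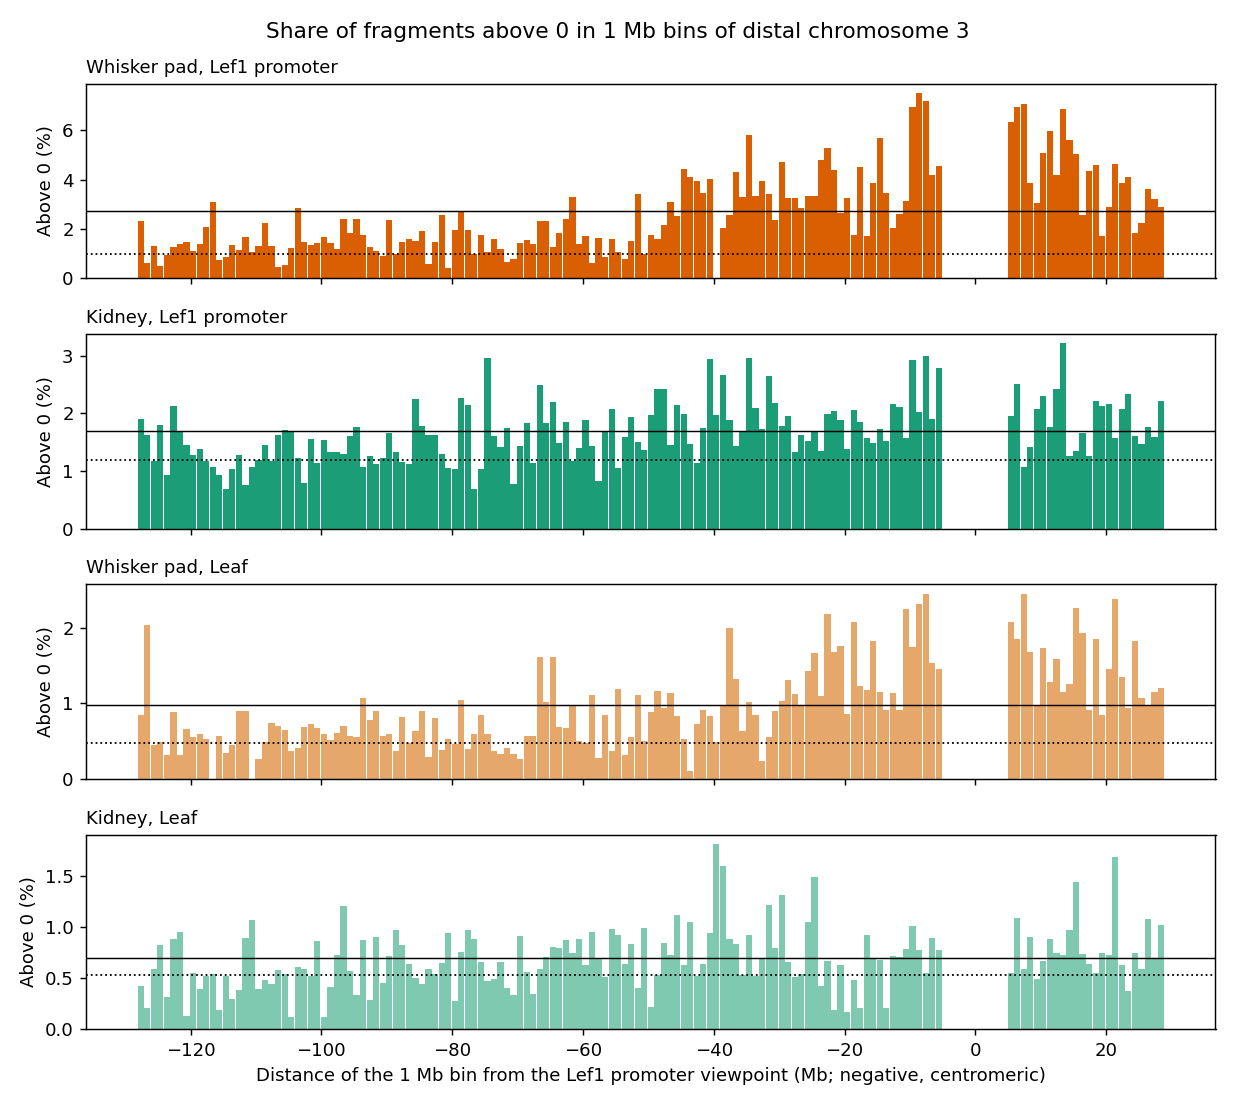
Share of fragments above 0 (%) in the 147 bins of 1 Mb, by distance of the bin's centre from the *Lef1* promoter viewpoint (Mb, negative on the centromeric side), 1 panel per library with its own vertical axis. Solid lines mark the share over all distal fragments and dotted lines the share on the other autosomes. Bars of both whisker pad libraries rise towards the gap around *Lef1*, to 7.52% and 2.45%, while kidney bars reach at most 3.22% and 1.81% with a weaker slope.

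The bins with the highest share, averaged over the 4 libraries after division by each library's own distal share, lay close to *Lef1* with 1 exception. Bin 123, 7.61 Mb away with the heparan sulphate enzyme gene *Ndst3*, the actin-binding *Synpo2* and the secretory coat gene *Sec24d*, had 7.20% of its 903 fragments above 0 in whisker pad against 2.99% in kidney from the promoter, and 2.44% and 0.554% from Leaf. Bin 121 (*Tmem56*, *Slc44a3*, *Alg14*) had 6.97%, 2.93%, 1.74% and 1.01% in the same order. On the telomeric side, bin 137 (*Emcn*, *Dapp1*, *Dnajb14*) had 6.96%, 2.50%, 1.85% and 1.09%.

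Bin 122, with *Bcar3*, the retinal transporter gene *Abca4* and the phosphodiesterase gene *Pde5a*, held the highest share of any bin in whisker pad from the promoter, 7.52%. It had 2.03% in kidney from the promoter, 2.31% in whisker pad from Leaf and 0.771% in kidney from Leaf. Bin 152 (*Pigk*, *Ak5*, *St6galnac5*) was the exception in distance, at 21.4 Mb, with 4.64%, 1.58%, 2.37% and 1.68%. The genes given are those with the longest span in each bin.

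The lowest bins lay far towards the centromere, 70.6 to 123.6 Mb away. Bin 60, 70.6 Mb away with the splicing regulator gene *Mbnl1* and the deacetylase genes *Aadacl2* and *Aadac*, had 7 fragments above 0 of 909 in each promoter library and 3 in each Leaf library. Bin 7 (*Pkia*, *Zc2hc1a* and the cytokine gene *Il7*) had 6 of 644 in each promoter library and 2 in each Leaf library. The next lowest were bins 15, 16 and 17, with 4, 2 and 1 protein-coding gene starts, among them *Sirpb1b*, *Ythdf3* and *Cypt12*.

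The share of fragments above 0 rose with gene density in whisker pad from the promoter. The distal stretch holds 952 protein-coding genes, from 0 starts in each of 24 bins to 47 in bin 92. In the 49 bins with the fewest starts (0 to 2), 1.76% of fragments were above 0 in whisker pad from the promoter, and in the 49 bins with the most (7 to 47) it was 3.64%, a ratio of 2.07 (1.90 to 2.26). In kidney from the promoter the shares were 1.62% and 1.70%, with a ratio of 1.05 whose interval (0.949 to 1.17) included 1. From Leaf the ratio was 1.26 in both tissues, with intervals of 1.10 to 1.45 in whisker pad and 1.07 to 1.48 in kidney.

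Distance moves with gene density along this chromosome. The gene-poor bins lay at a median distance of 83.6 Mb and the gene-rich ones at 36.6 Mb, while the median fragment length was 319 and 315 bases. Among bins farther than 40 Mb, the ratio was 1.84 (1.60 to 2.12) in whisker pad from the promoter. It was 1.00 in kidney from the promoter, 1.08 in whisker pad from Leaf and 1.06 in kidney from Leaf, and the latter 3 intervals included 1. This limit does not hold distance equal. Bins 88, 89 and 90, with 36, 38 and 33 starts, lay just past it, 42.6, 41.6 and 40.6 Mb away. With bins ordered by GC content in place of gene starts, the ratios over all distal bins were 1.95 and 1.06 from the promoter in whisker pad and kidney, and 1.25 and 1.18 from Leaf.

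On the other autosomes, the ratio between bins with the most and the fewest starts was 1.18 (1.14 to 1.22) in whisker pad and 0.967 (0.938 to 0.997) in kidney from the promoter. From Leaf it was 1.17 (1.11 to 1.22) in whisker pad and 1.01 (0.960 to 1.05) in kidney.

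**Figure D3:**
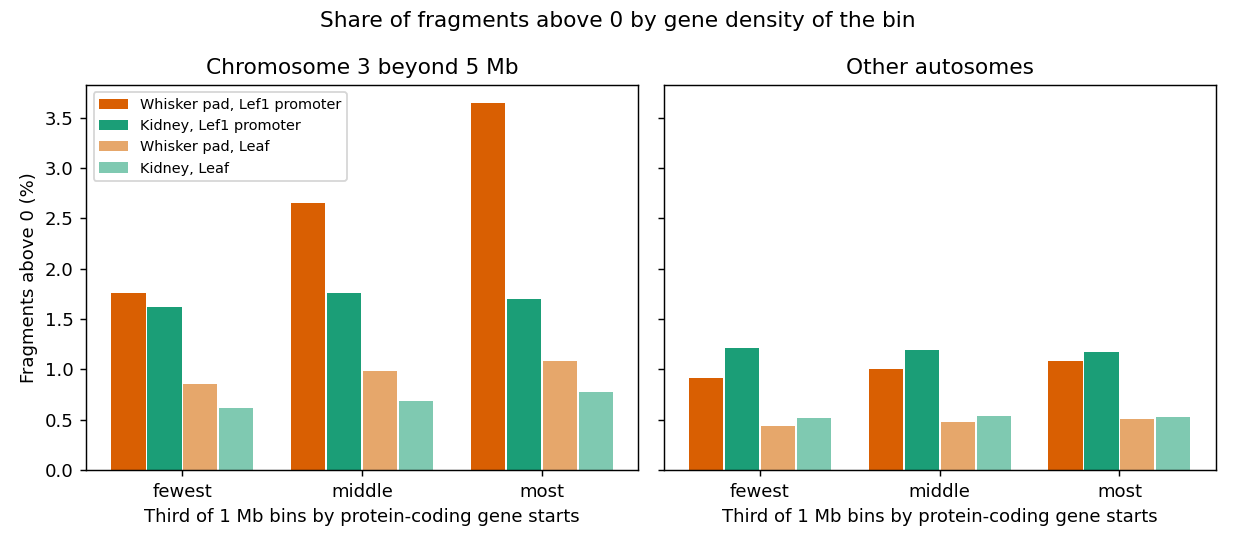
Share of fragments above 0 (%) in 1 Mb bins grouped by the number of protein-coding gene starts (fewest, middle and most), for chromosome 3 beyond 5 Mb (left, 49 bins a group) and the other autosomes (right), with 1 bar per library. In whisker pad from the promoter the distal bars rise from 1.76% to 3.64%, while the kidney bars from the promoter stay between 1.62% and 1.76%.

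The order of the bins was most alike between the 2 whisker pad libraries. Over the 147 bins, Spearman's rho of the share above 0 was 0.60 between whisker pad from the promoter and whisker pad from Leaf. It was 0.39 between the tissues from the promoter, and also 0.39 between kidney from the promoter and whisker pad from Leaf. The 3 pairs that include kidney from Leaf gave 0.17 to 0.18. All bins share distance, base composition and fragment number between libraries. After the linear trend of the ranks with distance was taken out, rho was 0.18 between the whisker pad libraries and between -0.04 and 0.10 in the other 5 pairs. Most of the likeness between bins thus went together with distance, and what remained is too weak in such sparse values to count as a finding.

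**Figure D4:**
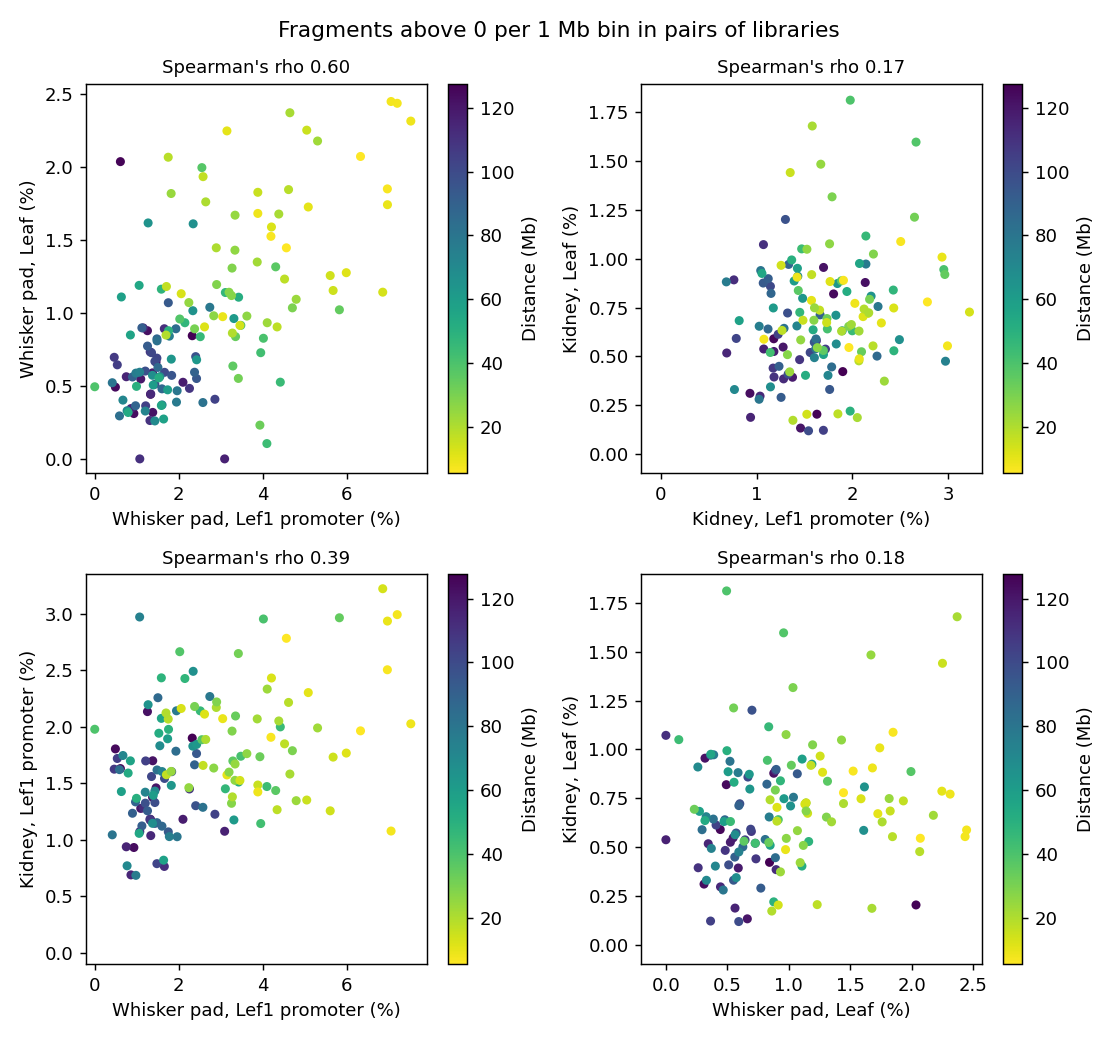
Share of fragments above 0 (%) in each of the 147 bins in pairs of libraries, coloured by distance from the *Lef1* promoter viewpoint (Mb): the 2 viewpoints in whisker pad (upper left, rho 0.60) and kidney (upper right, rho 0.17), and the tissues compared from the promoter (lower left, rho 0.39) and Leaf (lower right, rho 0.18). The near bins occupy the upper right of the whisker pad plot.

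Few single fragments were shared, as few were above 0 in any library. Of the distal fragments, 120117 were at 0 in every library, 7333 were above 0 in 1 library, 235 in 2, 5 in 3 and 1 in all 4. The largest overlap, 100 fragments, was between the tissues from the promoter, which was 2.85% of the whisker pad fragments above 0 and 4.61% of the kidney ones. Between the viewpoints, 57 fragments were shared in whisker pad (1.62% of the promoter's and 4.56% of Leaf's) and 26 in kidney (1.20% and 2.91%). Between the tissues from Leaf, 15 were shared (1.20% of the whisker pad and 1.68% of the kidney fragments above 0). Over all distal fragments, the share above 0 was 2.75% in whisker pad and 1.70% in kidney from the promoter. From Leaf it was 0.980% and 0.699%. Each percentage of overlap given here was above the share of the other library of its pair.

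A fragment above 0 in 1 library of a pair was above 0 in the other 1.23 to 1.74 times as often as a fragment at 0. Besides the one adjoining the fragment shown above, the fragments above 0 in 3 libraries included those within *Cnn3* (chr3:121425327-121426774), *Tspan5* (chr3:138837008-138837397) and *Gtf2b* (chr3:142764472-142765463), named after their values were seen. The one in *Tspan5*, a tetraspanin gene, scored 17.7 in whisker pad from the promoter, but only 0.27 in whisker pad and 0.06 in kidney from Leaf.

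A bin was counted as high in a library when its share was at least 1.5 times that of all distal fragments. This held for 17.7% of bins in whisker pad and 6.12% in kidney from the promoter, and for 17.7% and 8.84% from Leaf. No bin was high in all 4 libraries. Bins high in both whisker pad libraries numbered 14, all between 5.39 and 22.6 Mb from *Lef1*, with a median of 6.5 gene starts against 4 over all 147 bins. Bins high in both kidney libraries were 92 and 99, at 38.6 and 31.6 Mb. Bin 99, with *Spag17*, *Tbx15* and *Wars2*, had 2.65% and 1.21% of fragments above 0 in kidney from the promoter and Leaf, and 3.42% and 0.551% in whisker pad.

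To compare tissues bin by bin, each share was divided by the library's own distal share, with 1 fragment above 0 added per bin. From the promoter, 5.44% of bins were past 2-fold with whisker pad higher and 15.6% with kidney higher. From Leaf the percentages were 9.52% and 15.6%. The ratio was on the same side of 1 from both viewpoints in 94 of 147 bins. As the whisker pad share declined more with distance, this ratio falls with distance too, from 1.67 for all fragments at 5 to 10 Mb to 0.751 at 40 to 80 Mb and 0.666 beyond 80 Mb from the promoter, and from 1.81 to 0.740 and 0.730 from Leaf.

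A single bin was past 2-fold with whisker pad higher from both viewpoints. Bin 138, 7.39 Mb telomeric of *Lef1*, holds 14 protein-coding gene starts, with *Tspan5*, *Rap1gds1* and the lipoprotein assembly gene *Mttp* the longest. From the promoter, 72 of its 1021 fragments (7.05%) were above 0 in whisker pad against 11 (1.08%) in kidney. From Leaf, 25 (2.45%, the highest bin of that library) and 6 (0.588%) were above 0. Whisker pad over kidney, relative to each library's distal share, was 3.76 from the promoter and 2.65 from Leaf. The bin was picked for these ratios among 147, so that they are a description only. Bin 122, 8.61 Mb away, came close, with 2.22 from the promoter and 1.98 from Leaf. All fragments at 5 to 10 Mb together had 1.67 and 1.81, so that a higher whisker pad share was not particular to bin 138.

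Bins with kidney higher from both viewpoints numbered 9, namely bins 6, 42, 47, 50, 75, 77, 80, 91 and 92. They lay 38.6 to 124.6 Mb away, and 7 of the 9 had at most 2 gene starts, against 59 of all 147 bins. Without the added fragment, the counting intervals of bins 42 and 80 included a ratio of 1 from both viewpoints. Those of bins 6, 47, 50, 75 and 77 included it from Leaf. In bin 91, which holds only *9130204L05Rik*, none of 607 fragments was above 0 in whisker pad from the promoter, which allows a share of up to 0.494%, and 12 (1.98%) were in kidney. With 3 fragments put in place of 0 in whisker pad, the kidney share relative to its distal share was 6.48-fold higher. That value takes the 12 kidney fragments as exact and does not allow for the choice of the bin. From Leaf, bin 91 had 3 fragments above 0 in whisker pad against 11 (1.81%) in kidney, the highest bin of that library, and the whisker pad over kidney ratio was 0.238. On so few fragments the counting interval, without the added fragment, was 0.0546 to 0.694, and it does not allow for the choice of the bin by its ratio.

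Bin 92 carries the small proline-rich and late cornified envelope genes of the epidermal differentiation complex, which build the outer layer of skin, and has the most gene starts of the distal stretch. It had 19 of 939 fragments above 0 in whisker pad (2.02%) against 25 in kidney (2.66%) from the promoter, and 9 (0.958%) and 15 (1.60%) from Leaf. The whisker pad over kidney ratios were 0.475 and 0.446. The other 7 bins with kidney higher, each with at most 8 fragments above 0 in whisker pad save bin 75 with 13 from the promoter, were bin 50 with *Slc7a11*, bin 75 with *Wdr49*, *Zbbx* and *Serpini1*, bin 80 with *Gria2* and *Glrb*, which encode neurotransmitter receptor subunits, bin 6 with *1700008P02Rik*, and bins 42, 47 and 77, which have no protein-coding gene start. The highest bin of kidney from the promoter was bin 144, with *Hs2st1*, *Sh3glb1* and *Clca3a1*, at 3.22%, where whisker pad had 6.85%.

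Gene lists were described by the share above 0 within 250 kb of each gene's start, divided by the library's distal share. Among the 952 distal protein-coding genes, this was at least 1.5 for 33.3% in whisker pad and 16% in kidney from the promoter, and for 20.6% and 24.4% from Leaf. Their median was 1.25, 0.964, 0.928 and 0.983 in the same order. Windows of neighbouring genes overlap and share fragments, so that the genes of a list are not independent, and a window holds few fragments above 0.

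As a group, Wnt pathway genes had a median below that of all distal protein-coding genes in every library except whisker pad from Leaf. Of 9 listed, 1 reached 1.5 in whisker pad and 0 in kidney from the promoter, and 2 in each tissue from Leaf. Over all distal genes the shares were 33.3% and 16% from the promoter, and 20.6% and 24.4% from Leaf. The medians were 0.891 in both tissues from the promoter, against 1.25 in whisker pad and 0.964 in kidney over all distal genes. From Leaf they were 1.03 in whisker pad and 0.830 in kidney, against 0.928 and 0.983. With 9 genes, these differences were not tested. *Celsr2*, a planar polarity cadherin 22.7 Mb away, had 31 fragments above 0 in whisker pad against 8 in kidney from the promoter, with values of 2.08 and 0.869, and 10 and 3 from Leaf, with 1.88 and 0.791. *Wls*, which escorts Wnt ligands to the cell surface and lies at the telomeric end, had values of 1.16, 1.41, 2.04 and 2.29 on 8, 6, 5 and 4 fragments. The ligand gene *Wnt2b* had 11, 8 and 6 fragments above 0 and 0 in kidney from Leaf. The values of *Sfrp2*, which encodes a secreted Wnt modulator, were lower in whisker pad from both viewpoints (0.745, 1.43, 0.570 and 1.60). Those of the beta-catenin partners *Bcl9* (1.42, 1.15, 0.497 and 0.696) and *Pygo2* (1.35, 0.891, 1.03 and 1.44) were higher in whisker pad from the promoter and lower from Leaf. The numbers of fragments above 0 from Leaf were equal in the tissues, 2 in each for *Bcl9* and 6 in each for *Pygo2*. The values of *Tbl1xr1*, *Tnik* and *Vangl1* lay between 0.131 and 1.19.

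Of 7 craniofacial and mesenchyme regulators, 3 reached 1.5 in whisker pad and 0 in kidney from the promoter, and 0 and 2 from Leaf. Their medians were 1.30 and 1.22 from the promoter, and 0.928 and 0.780 from Leaf. *Bmpr1b*, a receptor of bone morphogenetic proteins 11.1 Mb telomeric of *Lef1*, had 40 fragments above 0 in whisker pad against 12 in kidney from the promoter, with values of 2.52 and 1.22, and 1.42 and 1.49 from Leaf. *Tbx15*, a transcription factor gene of the dermis and skeleton, had 1.71 and 1.32 from the promoter, and 0.457 and 1.92 from Leaf. *Notch2*, a receptor gene, had 1.65, 1.499, 0.928 and 0.780. The values of *Sox2*, *Fgf2*, *Fat4* and *Shox2* lay between 0.287 and 2.15. None of these regulators reached 1.5 in whisker pad from both viewpoints.

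The epidermal differentiation genes lie in 1 cluster 37.7 to 40.4 Mb from *Lef1*, and their values in whisker pad were between 0.243 and 1.30. Of 10 listed, 0 reached 1.5 in either whisker pad library and 4 did in each kidney library. The medians were 0.692 in whisker pad against 1.01 in kidney from the promoter, and 1.09 and 1.42 from Leaf. The median for kidney from the promoter depended on the window, at 1.60 within 500 kb and 0.282 within 100 kb, and that for whisker pad from the promoter on the score, at 0.423 and 0.316 with a score of at least 1 and 5. *Lor*, which encodes the envelope protein loricrin, had 11 fragments above 0 in whisker pad against 23 in kidney from the promoter, with values of 0.944 and 3.19, and 3 and 6 from Leaf, with 0.722 and 2.02. *Sprr1b*, a small proline-rich protein gene, had 0.614 and 2.11 from the promoter and 1.08 and 1.51 from Leaf. The other 2 that reached 1.5 in kidney from the promoter were the calgranulin genes *S100a8* (2.14) and *S100a9* (2.10), and from Leaf *Sprr1a* (1.84) and the involucrin gene *Ivl* (2.55). The filaggrin genes *Flg* and *Flg2*, and *Rptn* and *Tchh*, at the telomeric edge of the cluster, were between 0.423 and 1.11 in all 4 libraries, so that the cluster was not uniform.

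Of 6 genes chosen for the kidney, 0 reached 1.5 in whisker pad and 1 in kidney from the promoter, and 0 and 1 from Leaf. *Pdzk1*, a scaffold of renal transporters, had 1.12 and 1.93 from the promoter and 0.196 and 1.37 from Leaf. The nephrin relative *Kirrel* had 17 and 7 fragments above 0 from the promoter, and 0 in whisker pad and 4 in kidney from Leaf. The values of *Hnf4g*, *Car2*, *Muc1* and *Hao2* lay between 0.225 and 1.55. The list's medians were 1.19 and 0.869 from the promoter, and 0.389 and 1.12 from Leaf.

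**Figure D5:**
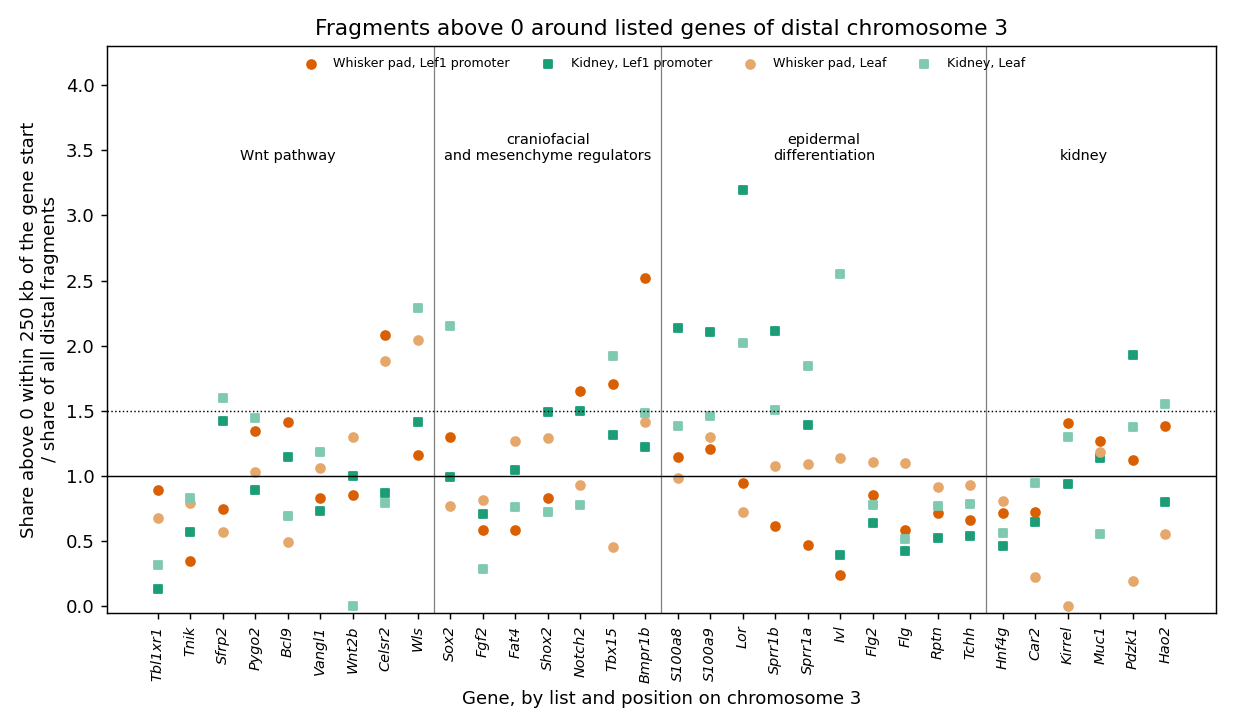
Share of fragments above 0 within 250 kb of the start of each of 32 listed genes, divided by the share of all distal fragments (vertical axis, no unit), in the 4 libraries. The solid line marks 1 and the dotted line 1.5. *Lor* reaches 3.19 in kidney from the promoter and *Bmpr1b* 2.52 in whisker pad from the promoter.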

How the data were processed

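The data were 4 libraries of 4C-Seq, 1 for each of 2 tissues (whisker pads at E12.5, adult kidney) and 2 viewpoints (Leaf, *Lef1* promoter). The authors scored reads per NlaIII fragment with HTSstation. The submitters' processing notes name Bowtie2, with no version, and mm10. The authors deposited a raw score and a smoothed one, each a signal that is never negative, and left the fragments around the viewpoints empty. The scaling of the raw signal is not given in the sources used here, so that depth is unknown.

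Midpoints more than 5 Mb from the centre of the promoter viewpoint defined distal fragments for all libraries. Shares above 0 carry 95% Wilson intervals and ratios of shares 95% log-scale intervals, which cover counting over fragments only. Bins of 1 Mb needed 200 fragments. A bin was counted between tissues past 2-fold, with 1 fragment above 0 added, and a bin or gene window against its library at 1.5 times the distal share. Correlations over bins are descriptions. With 1 library per tissue and viewpoint, no test was made. Calculations were tested on simulated data.

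Members, bins and gene lists were chosen with earlier results of these data known. Named were the listed genes, the 5 highest and 5 lowest bins over the 4 libraries, the highest bin and fragment of each library, bins past 2-fold the same way from both viewpoints, up to 3 genes with the longest span per bin, and fragments above 0 in all libraries. Exceptions are bins high in both kidney libraries, bin 4 and fragments above 0 in 3 libraries, named after their values were seen. Of the gene lists, 2 members are not reported here, and the lists' counts and medians leave them out. Alternatives changed the distance limit and its origin, the score minimum, the fragments used, the smoothing, the denominators, the bin width, the fold and the gene window. Added after seeing the data were bins farther than 40 Mb, removal of the trend with distance, equal numbers of fragments, and neighbours taken as 1. Genes were those of GENCODE M21. The software was scipy 1.17.1, pandas 2.3.3, numpy 2.4.6 and matplotlib 3.10.9 under Python 3.11.15.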

Additional observations from a re-analysis of the deposited data

Results flagged for a closer look

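Bin 4, a stretch with no protein-coding gene start 126.6 Mb from *Lef1* near the centromere, was past 2-fold between the tissues in opposite directions from the 2 viewpoints. Whisker pad over kidney, relative to each library's distal share, was 0.275 from the promoter, on 3 and 8 of 491 fragments above 0, and 3.93 from Leaf, on 10 and 1. Without the added fragment the counting intervals were 0.0618 to 0.868 and 0.917 to 55.6, which do not allow for the choice of the bin by its ratios. The difference was not tested.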

How the results depend on the processing

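No paired analysis was possible because each tissue and viewpoint has 1 library. Whisker pad stayed above kidney in the distal share, and in its ratio to the other autosomes, under every alternative run. From the promoter the share ratio was 1.51 with a limit of 10 Mb, 1.53 and 1.47 with a score of at least 1 and 5, and 1.40 on the smoothed score. From Leaf it was 1.56 and 1.60 with scores of at least 1 and 5. The ratio taken relative to the other autosomes was 1.79 from the promoter at 10 Mb. The share of the chromosome 3 score, whisker pad over kidney, was 0.867 from the promoter when fragments were counted, and 0.828 and 0.857 from the promoter and Leaf when the score within 1 Mb was left out.

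The rank correlation between bins (rho) moved with bin width. For the promoter, the 2 tissues had a rho of 0.56 and 0.70 in bins of 2 and 5 Mb, and 0.062 without the trend with distance. Between the whisker pad libraries it was 0.70 and 0.82, and 0.18 without the trend, 0.44 beyond 20 Mb and 0.47 with equal numbers of fragments. Whisker pad from the promoter and kidney from Leaf gave 0.33, 0.52 and, without the trend, -0.038. Kidney from the promoter and whisker pad from Leaf gave 0.25 in bins of 500 kb, 0.64 at 5 Mb and 0.10 without the trend. The kidney libraries gave 0.35, 0.43 and 0.042. The tissues from Leaf gave 0.025 at 500 kb, 0.48 at 5 Mb and -0.020 without the trend. Both negative values reverse the sign, and the cause of wider bins raising rho was not tested.

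Beyond 40 Mb the ratio by gene density was 1.84 in whisker pad from the promoter, and 1.08 and 1.06 in whisker pad and kidney from Leaf. Bins with whisker pad higher from the promoter numbered 20 at 1.5-fold, 1 at 3-fold and 1 in bins of 2 Mb, and with kidney higher 55, 10 and 10. From Leaf they numbered 27, 2 and 4 with whisker pad higher, and 41, 10 and 10 with kidney higher. The counts at 1.5-fold and 3-fold are of 147 bins, whereas bins of 2 Mb are fewer, so that their counts are not comparable. The 20 values of the decline with distance stayed within their intervals, and of 64 values of the gene lists' medians in single libraries 59 moved by less than 1.5 times. The other 5 were the epidermal medians for kidney from the promoter (1.60 within 500 kb and 0.282 within 100 kb) and for whisker pad from the promoter (0.423 and 0.316 with a score of at least 1 and 5), and the kidney list's median for kidney from Leaf (0.644 within 100 kb).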
